A study of Mus musculus with 44 samples.

Results

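The cytosolic ribosomal protein genes described here were taken from the array's probe table, as the probe sets with a single gene symbol made of Rpl or Rps and a number with an optional letter, together with Rpsa and Rplp0. Names of the Rps6k kinases, which phosphorylate a ribosomal protein and are not ribosomal proteins themselves, were left out. The rule gave 33 genes with 47 probe sets, out of 8251 genes that had a probe set of their own and 12422 probe sets that were not controls. Small-subunit genes numbered 17, with 26 probe sets, and large-subunit genes numbered 16, with 21 probe sets. No measured value entered the rule. A further 38 probe sets listed a ribosomal symbol together with others and were not used as members.

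RNA came from bone marrow cells sorted by flow cytometry as Lin-Sca-1+c-kit+, a population enriched in blood-forming stem and progenitor cells, and was hybridised to a one-colour Affymetrix array in a study of genes and loci that control stem cell function. The mice were females of 3 to 6 months from 22 BXD strains, which are inbred mosaics of the C57BL/6 and DBA/2 genomes. Marrow of 3 mice was pooled for each sample, 16000 to 118000 cells were sorted per sample, and lineage-depleted cells were the 5% with the least staining for lineage antibodies. No group carried a treatment or an engineered allele. Array series A and B are names given here, after a code in the sample titles. The titles do not say what the code stands for. Series A held 20 arrays of strains BXD6, BXD8, BXD11, BXD12, BXD31, BXD32, BXD33, BXD38, BXD40 and BXD42. Series B held 24 arrays of strains BXD1, BXD2, BXD5, BXD9, BXD14, BXD16, BXD18, BXD19, BXD21, BXD28, BXD34 and BXD39. Each strain had 2 arrays, numbered here as replicates 1 and 2 in accession order. No label says which pool an array came from, so the p-values reflect how far these arrays spread, and part of that may be technical.

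Ribosomal proteins are the structural proteins of the ribosome, and together with the ribosomal RNAs they form its small and large subunits. The small subunit reads the messenger RNA and the large subunit joins amino acids. Their messenger RNAs are among the most abundant of a cell, and most begin with a C followed by a run of pyrimidines, the 5′ terminal oligopyrimidine tract, through which their translation is controlled together by the mTOR pathway. In blood formation these genes are known from human disease, since loss of 1 copy of RPS19 or of several other ribosomal protein genes causes Diamond-Blackfan anaemia, a failure of red cell production.

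The arrays labelled BXD40 and BXD42 went against their labels. H2-Ea, a class II gene that is silent in mice with the C57BL/6 allele and expressed with the DBA/2 allele, was at the floor of 4 (log2) on replicate 1 and measured 7.57 on replicate 2 of BXD40, and 8.69 and 4.41 on those of BXD42. Over 272 probe sets past the strain effect without these strains, r between the arrays labelled BXD40 was -0.164 and that between the arrays labelled BXD42 was -0.111, against 0.515 to 0.868 in the other 20 strains. These probe sets were chosen for differing among the other 20 strains. That choice favours agreement there, so the ranges are not on an equal footing. The strain and series tests of the members were also run without the arrays labelled BXD40 and BXD42. Among markers of the sorted population, Kit averaged 9.44 and the brightest Cd34 probe set 8.74. Of the defining markers of other lineages, Cd3e and Itgam were dim, with means of 5.37 and 4.47, although Cd4 averaged 7.17. Of 10 tested neutrophil and monocyte markers, S100a8 (mean 10.98), Camp (10.94), S100a9 (10.31) and Prtn3 (9.63) were brighter than Kit. Of 9 tested B cell markers, Dntt (11.53) and Ighm (10.58) were. The other markers of both lists were dimmer than Kit, with means from 6.84 for Elane to 9.08 for Jchain. The 3′ over 5′ ratio of the Gapdh control probe sets, a measure of RNA integrity and labelling, ranged from 2.65 to 4.21 (log2) over the 44 arrays.

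Start-site sequences are shown because the oligopyrimidine tract is what the members' messenger RNAs are known to share. They are from RefSeq (GRCm38.p6) and run from 30 bases before the annotated start site to 25 bases from it, 5′ to 3′ on the gene's strand. Capitals mark the whole of a run of at least 8 C or T, unbroken by A or G, that overlaps the window from 10 bases before to 20 bases after the start site, so a run may begin ahead of that window, as in Rpl7a. Rpl7a, Rpl13a, Rps10, Rps18 and Rps27 hold such a run, in order of its length. Rpsa and Rps19, the members with the highest intraclass correlations in the strain comparison below, hold none in that window at their first annotated start. The Rpsa sequence shown ends in pyrimidines that begin past the window, so its result depends on the annotated start and the window. Whether such runs relate to the strain comparison was not tested.

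Rpl7a (chr2:26910777-26910831, plus strand): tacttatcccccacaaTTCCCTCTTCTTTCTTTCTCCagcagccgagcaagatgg
Rpl13a (chr7:45128721-45128775, minus strand): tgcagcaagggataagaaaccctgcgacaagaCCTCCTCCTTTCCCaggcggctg
Rps10 (chr17:27635220-27635274, minus strand): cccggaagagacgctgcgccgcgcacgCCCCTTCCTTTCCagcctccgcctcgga
Rps18 (chr17:33955641-33955695, minus strand): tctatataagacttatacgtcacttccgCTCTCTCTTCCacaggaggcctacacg
Rps27 (chr3:90213624-90213678, minus strand): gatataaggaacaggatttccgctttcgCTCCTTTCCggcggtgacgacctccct
Rpsa (chr9:120127736-120127790, plus strand): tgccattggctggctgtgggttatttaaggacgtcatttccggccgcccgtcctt
Rps19 (chr7:24884562-24884616, plus strand): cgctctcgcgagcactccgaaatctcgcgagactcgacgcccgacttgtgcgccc

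The run is 21 bases long in Rpl7a, 14 in Rpl13a, 13 in Rps10, 11 in Rps18 and 9 in Rps27. Of the 33 genes, 26 had at least 1 promoter in the table, with 35 start sites in all. A run of at least 8 was found at 12 of these start sites (34.3%), against 16.9% of the 32851 start sites of all genes. On both strands, from 250 bases before to 50 after the start, the motif CTTCCGG, a binding sequence of ETS family factors, was found at 11 start sites (31.4%), against 8.86% of all. The motif AAGATGGC, that of the factor YY1, was found at 6 (17.1%), against 2.75%. The TATA box sequence TATAAA was found at 4 (11.4%), against 13.6%. A match describes these letters and not binding. Start sites of 1 gene overlap, so they are not independent.

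No ribosomal protein probe set passed the test for a difference between strains. Levels are log2 of quantile-normalized intensity with values under 16 set to 16, and a probe set was tested where its mean over all arrays exceeded 6.00. That kept 36 of the 47 members, which represent 28 genes. The strain effect was an F test in limma over contrasts within each series, with Benjamini-Hochberg adjustment over all 7453 tested probe sets. At an adjusted p of 0.05, 0 of 36 members were called, against 2.8% of all tested probe sets. At an unadjusted p under 0.05 there were 5 members, 13.9%, against 11.9%. With the ordinary F test, 1 member was called (Rpsa, adjusted p 0.0444), against 2.51%. Among the members the median SD between strain means within series was 0.263, and over all tested probe sets it was 0.265. The median SD between arrays of a strain was 0.354 in the members and 0.359 over all. The intraclass correlation, the share of variance that lies between strains, had a median of 0.0904 in the members and 0.0386 over all. It exceeded 0.5 for 2 of 36 members, Rpsa and Rps19, a share of 5.56% against 4.8%. In both SDs the members' medians lay close to those of the array as a whole on this scale. With the values as deposited, the median SD between strain means was 0.36 in the members and 0.266 over all. That between arrays of a strain was then 0.425 in the members and 0.361 over all. In bulk samples such as these, fewer cells of a type and less RNA per cell cannot be told apart.

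**Figure D1:**
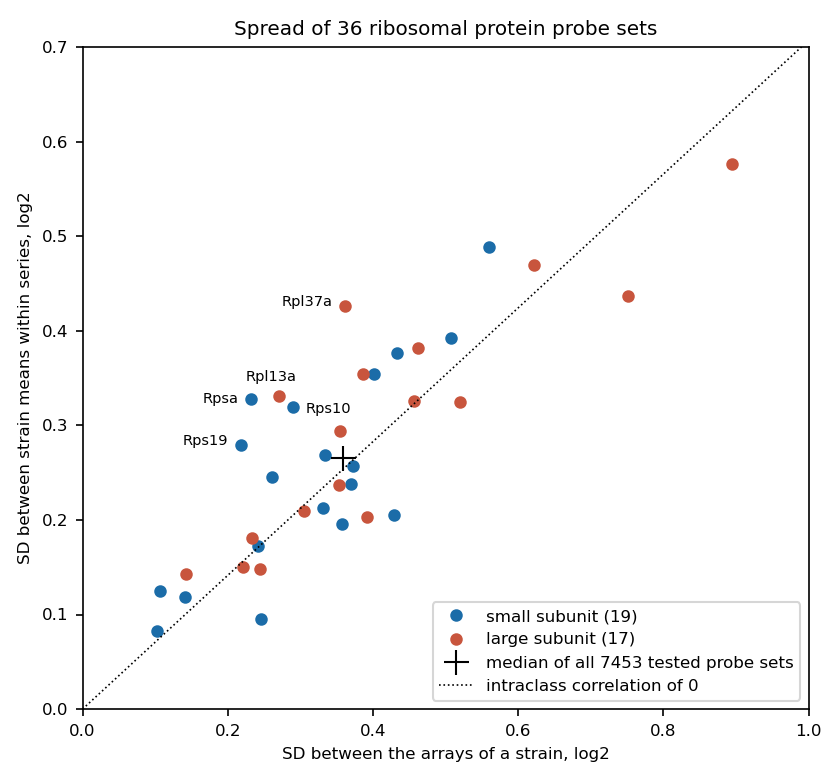
Spread of the 36 tested ribosomal protein probe sets. The horizontal axis is the SD between the 2 arrays of a strain and the vertical axis the SD between strain means within series, both in log2 units, with small-subunit members in blue and large-subunit members in red. The cross is the median of all tested probe sets, at 0.359 and 0.265, and the dotted line marks an intraclass correlation of 0. The labelled Rpsa, Rps19, Rpl13a, Rpl37a and Rps10 lie above the line. Other members do as well, among them Rps28 (98085_f_at), Rplp0 and Rps18, and most members lie near it.

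Rpsa came nearest to the threshold. It encodes a small-subunit protein that is also known as the laminin receptor precursor. Its level over the 44 arrays had a lowest value of 9.93, a median of 10.74 and a highest of 11.65. In BXD14, Rpsa measured 9.93 and 10.09, the lowest pair. In BXD2 it measured 11.23 and 11.65. Of the arrays of other strains only 1 exceeded the lower BXD2 array, a BXD18 array at 11.40, and the other BXD18 array measured 10.55. Strain means spread far less in series A, from 10.57 in BXD8 to 10.93 in BXD31, than in series B, from 10.01 in BXD14 to 11.44 in BXD2, a 2.70-fold range. The strain effect of Rpsa had an intraclass correlation of 0.601 and an adjusted p of 0.0613 by limma. With series B alone the adjusted p was 0.0851, and with series A alone it was 0.958. Without the arrays labelled BXD40 and BXD42 it was 0.0491. Leaving out 1 array took Rpsa past the threshold 4 times, with adjusted p of 0.0120 without BXD18 replicate 2, 0.0278 without BXD18 replicate 1, 0.0445 without BXD38 replicate 1 and 0.0447 without BXD38 replicate 2. Over all 79 alternatives its adjusted p ran from 0.0120 to 0.958, and it was under 0.05 in 12.

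Set against the average of the remaining series B strains, Rpsa was higher in BXD2, by 0.84 (log2, SE 0.19) or 1.80-fold, with an adjusted p of 0.0135 within that strain by limma. This was the single call among the members over all 22 strains. In BXD2, 0.792% of all tested probe sets were called higher, and over all 22 strains 0.442% of the tests were called, 0.169% as higher and 0.273% as lower. Of 78 alternatives, 73 kept this call. It was not made without BXD2 replicate 2, where the adjusted p of the strain effect of Rpsa was 0.191, or without the 5 arrays described below as having the largest ribosomal share of signal. The remaining alternatives without the call leave BXD2 out. In BXD14 the difference was -0.72 (SE 0.19), with an adjusted p of 0.129.

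Rps10, a small-subunit protein and a human Diamond-Blackfan gene, ordered the strains much as Rpsa did. Over all arrays its level ran from 11.08 through a median of 11.99 to 12.67. The 2 arrays of BXD14 measured 11.21 and 11.11 and those of BXD2 measured 12.17 and 12.29, so that the pairs did not overlap. In BXD34 the arrays measured 12.67 and 11.84, and those of BXD18 measured 12.52 and 11.57, so the highest values came from strains whose own arrays were far apart. The correlation of Rpsa and Rps10 over 22 strain means, each centred on its series mean, was 0.893, the highest of the pairs of members. The strain effect of Rps10 had an adjusted p of 0.288 by limma.

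Rpl37a, a zinc-finger protein of the large subunit, did not follow that order. Its level ran from 7.65 through a median of 8.91 to 10.40. The arrays of BXD2, which were high for Rpsa, measured 7.65 and 8.85, and those of BXD18 measured 10.40 and 9.27. In BXD34 they measured 10.09 and 8.90. The strain effect of Rpl37a had an intraclass correlation of 0.472 and an adjusted p of 0.132 by limma. It passed at 0.0396 without BXD2 replicate 2, 0.0386 without BXD34 replicate 2, 0.0471 without BXD18 replicate 2 and 0.00293 without the 5 arrays with the largest ribosomal share of signal.

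Rps19, the gene most often mutated in human Diamond-Blackfan anaemia, ran from 10.92 through a median of 11.90 to 12.52. The lowest array was replicate 2 of BXD11, at 10.92, while replicate 1 measured 11.65. The highest pair was BXD2, at 12.45 and 12.52. In BXD5 the arrays measured 11.50 and 11.69. The strain effect of Rps19 had an intraclass correlation of 0.534 and an adjusted p of 0.169 by limma.

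Rpl13a, a large-subunit protein whose gene hosts small nucleolar RNAs in its introns, ran from 9.64 through a median of 10.44 to 11.51. Its highest array was BXD6 replicate 1, at 11.51, and the other BXD6 array measured 10.70. The arrays of BXD14 measured 10.05 and 9.85, and those of BXD33 measured 10.24 and 9.64. The strain effect of Rpl13a had an intraclass correlation of 0.498 and an adjusted p of 0.153 by limma. The next members by p were Rpl10a (161327_f_at, adjusted p 0.53), Rps4x (161654_r_at, 0.549) and Rps29 (162335_at, 0.578).

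**Figure D2:**
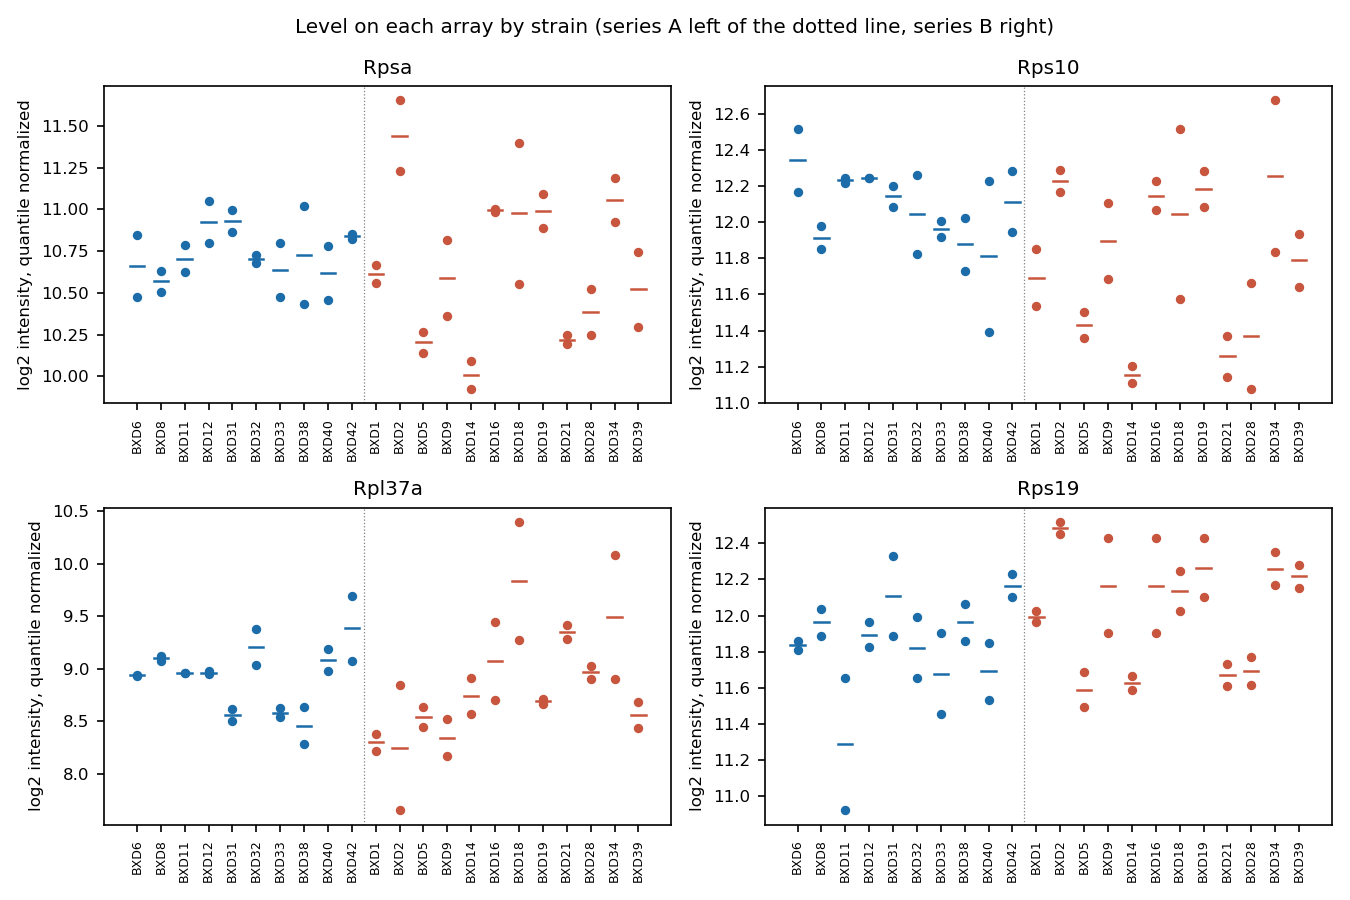
Level of Rpsa, Rps10, Rpl37a and Rps19 on each of the 44 arrays. The vertical axes are log2 quantile-normalized intensity, each strain has 2 points and a bar at their mean, and strains are ordered by number within series A (blue) and series B (red). Rpsa and Rps10 are lowest in BXD14, at 10.01 and 11.16, while Rpl37a is lowest in BXD2 at 8.25, and BXD18 has widely separated arrays for Rpsa, Rps10 and Rpl37a.

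Genes known from human Diamond-Blackfan anaemia held 12 of the tested probe sets, of Rps19, Rps24, Rps7, Rps10, Rpl35a, Rps29, Rps27, Rps28 and Rps20. None passed the strain effect in limma, against 2.8% of all tested probe sets. At an unadjusted p under 0.05 there were 2, Rps19 and Rps10, which is 16.7% against 11.9% of all. Their median SD between strain means was 0.263. Rps14, the gene tied to the anaemia of the human 5q- syndrome, was among the dim members, with a mean of 5.47.

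The steadiest members over strains by the SD between strain means were Rps24 (97696_r_at, 0.0826), Rps4x (100780_at, 0.0948), Rps3 (0.118) and Rps28 (98085_f_at, 0.125). Rps24 by 97696_r_at, a probe set designed from the same sequence as one of Rpl7, ran only from 13.24 to 13.58 over all arrays. Rps4x, the X-linked form of the S4 protein, ran from 12.17 to 13.04. These are bright probe sets, and their steadiness depended on the scale. With the values as deposited, the SD between strain means was 0.37 for Rps24, 0.275 for Rps4x, 0.251 for Rps3 and 0.321 for Rps28. After quantile normalization the other tested probe sets of Rps24 (93121_at) and Rps28 (100758_at) had SDs of 0.213 and 0.377. The widest SDs belonged to Rpl19 (161961_at, 0.576), Rps4x (161654_r_at, 0.488), Rpl22 (92857_at, 0.47), Rpl35a (0.436), Rpl37a (0.426) and Rps4l (98149_s_at, 0.392), a paralog of Rps4x. In 5 of these 6 probe sets the SD between arrays of a strain was larger than that between strain means, at 0.895, 0.559, 0.621, 0.751 and 0.507. The exception was Rpl37a, at 0.361.

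Between the array series, members were called about as often as all tested probe sets. The series hold different strains, so that strain and series cannot be told apart. On the 22 strain means, 8 of 36 members were called by limma, 22.2% being close to the 21.8% of all tested probe sets. Higher in series B were 3 of the 36 members, against 10.8% of all, and lower were 5 of the 36, against 11.1%. The direction was mixed in both subunits.

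Rpl22, a large-subunit protein needed in mice for the development of alpha-beta T cells, had the largest difference. By its probe set 92857_at, the strain means averaged 6.25 ± 0.53 (SD, n = 10 strains) in series A and 7.55 ± 0.41 (SD, n = 12) in series B, a difference of 1.30 (SE 0.19) or 2.47-fold, with an adjusted p of 5.71e-05 by limma. Single strain means of the series overlapped, since BXD8 reached 7.28 in series A and BXD9 averaged 6.495 in series B. The other Rpl22 probe set, 92856_at, differed by 0.19 (SE 0.09), with an adjusted p of 0.126 by limma. The strain means of these probe sets correlated at -0.068 (n = 22), so that Rpl22 has a different picture by each probe set. Rps7 and Rps3, both small-subunit proteins, were higher in series B by 0.41 (SE 0.11, adjusted p 0.00943 by limma) and 0.34 (SE 0.06, adjusted p 0.000716).

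Lower in series B were Rpl19 (161961_at), by -0.89 (SE 0.23), Rpl35a by -0.54 (SE 0.18), Rpl32 by -0.45 (SE 0.09), Rps4l (98148_at) by -0.43 (SE 0.09) and Rpl6 by -0.28 (SE 0.07). Rpl35a is a further human Diamond-Blackfan gene. Their adjusted p by limma were 0.00785, 0.0314, 0.00137, 0.00193 and 0.00951. The other tested Rpl19 probe set, 97483_at, differed by -0.09 (SE 0.13), and the other Rps4l probe set, 98149_s_at, by 0.07 (SE 0.16). For each of the 3 genes with a called probe set and a second tested one, the second was not called. None of the 8 differences changed sign in 76 alternatives. The call for Rpl35a was lost in 20 of them, with adjusted p up to 0.112. Those were the values as deposited, the set without BXD40 and BXD42, the sets without 1 of the strains BXD1, BXD5, BXD34, BXD38, BXD40 or BXD42, and the sets without 1 array of BXD8, BXD11, BXD12, BXD33, BXD32, BXD18, BXD21, BXD19, BXD9, BXD2, BXD14 or BXD28. Rpl6 was not called on the values as deposited (adjusted p 0.0758), nor Rps3 with arrays shifted to a common median (0.0708).

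**Figure D3:**
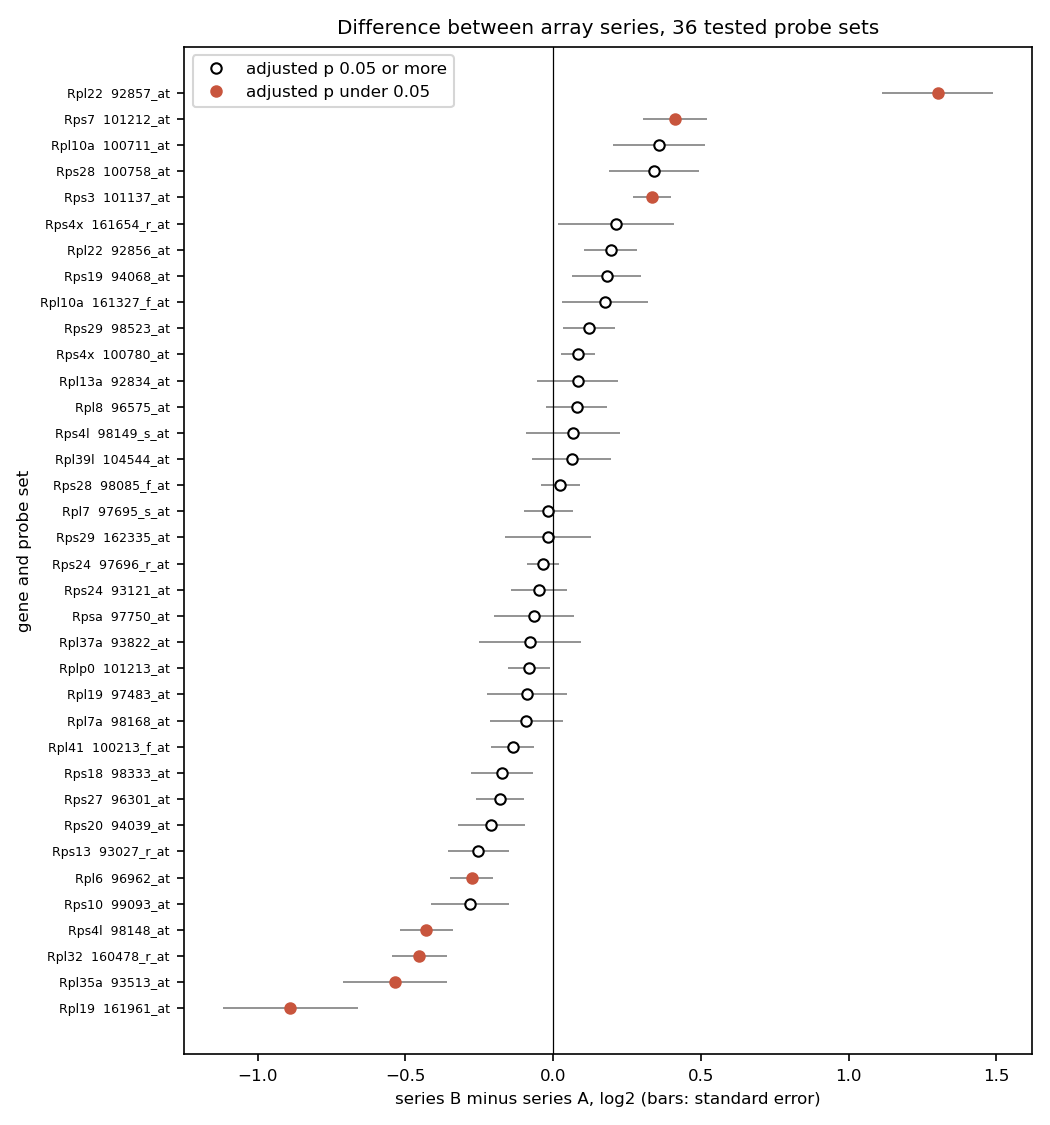
Difference between array series for the 36 tested probe sets, with series B minus series A of the strain means (log2) on the horizontal axis and the standard error as bars. Filled points have an adjusted p under 0.05. Rpl22 92857_at stands farthest to the right at 1.30 and Rpl19 161961_at farthest to the left at -0.89, and most of the others lie within 0.3 of 0.

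Beyond single genes, the bright members tended to move together, as the correlations below show, while over all members the shared movement was weak. Each member was centred on its mean in the series, and the median over the 36 members was taken for each strain. It was lowest in BXD5 (-0.17), BXD28 (-0.15) and BXD14 (-0.10), and highest in BXD16 (0.20), BXD34 (0.18) and BXD2 (0.15). The order depended on the scale. On the values as deposited the lowest were BXD28 (-0.28), BXD5 (-0.22) and BXD1 (-0.21), and the highest were BXD34 (0.42), BXD18 (0.39) and the arrays labelled BXD42 (0.30), followed by BXD16 (0.29) and BXD2 (0.28). The quantile-normalized values compare with an SD of 0.125 between arrays of a strain, and in 14 of 22 strains both arrays lay on the same side of 0. In BXD34, 80.6% of the members lay above their series mean and 49.9% of all tested probe sets did, while in BXD5 the shares were 25% and 50.4%. The arrays of BXD34 had medians of 0.31 and 0.00 and those of BXD16 of 0.07 and 0.32, while those of BXD5 had -0.18 and -0.19.

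Sums of markers of other cells are given for the 3 highest and the 3 lowest strains by the quantile-normalized values. Over the 6 arrays of the 3 highest strains the summed intensity of 10 neutrophil and monocyte markers ran from 7239 to 11561, and over those of the 3 lowest from 5969 to 7303. The sum of 4 erythroid markers ran from 2228 to 5075 and from 1565 to 2443, and that of 9 B cell markers from 5704 to 7000 and from 5040 to 10768. The sum of 2 megakaryocyte markers ran from 172 to 699 and from 187 to 305, and that of 6 markers of the sorted cells from 3701 to 5248 and from 4132 to 5145. The sum of 4 T and NK cell markers ran from 402 to 544 and from 486 to 722, and that of 2 markers of mast cells, basophils and eosinophils from 115 to 229 and from 223 to 397. Of the defining markers, Itgam was at the floor on 12 of 44 arrays, Cd8a on 1 and Cd3e on 0. In the strain test by limma, called markers were Flt3 and Procr of the 6 for the sorted cells, Hba-a1 of 4 erythroid, Vwf of 2 megakaryocyte, Camp, Mpo, S100a8 and S100a9 of 10 neutrophil and monocyte, and Dntt, Ighm and Jchain of 9 B cell markers. The Gapdh ratio ran from 2.84 to 4.14 and from 2.79 to 3.79. Their part in the members' level was not tested.

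Over 622 pairs of members of different genes, the median correlation of centred strain means was 0.108 (n = 22 strains), and 15.4% of pairs exceeded 0.5. Over all pairs of tested probe sets the median was 0.000253, and 2.92% exceeded 0.5. The pairs with the highest correlations after Rpsa and Rps10 were Rpl10a with Rpl19 (0.874) and Rpl19 with Rpl7a (0.844). Among the 19 members with a mean of 10 or more, the median over 170 pairs was 0.472 and 42.4% exceeded 0.5. Over all tested probe sets with such a mean the values were 0.00491 and 7.1%. The cut does not match brightness, since the median level was 11.94 in these members and 10.63 in the wider set. The points of each correlation share arrays and their scaling.

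On the scale as deposited the shared movement was larger, and it was larger between arrays of a strain than between strains. The 47 probe sets held 2.16% to 5.88% of the summed deposited intensity of an array, with a median of 2.64%. On 5 arrays it exceeded 4%. The share was 5.88% on BXD18 replicate 1 and 2.33% on replicate 2. It was 5.24% and 2.65% on the arrays of BXD34, and 4.54% and 3.11% on those labelled BXD42. It was 2.98% on replicate 1 and 4.37% on replicate 2 of BXD2, and 3.15% and 4.19% on those of BXD16. BXD6 alone had both arrays above 3.5%, at 3.8% and 3.79%. The SD of the share was 0.626 percentage points between strain means and 0.797 within strains, an intraclass correlation of 0.104. Without the arrays labelled BXD40 and BXD42 these were 0.616, 0.788 and 0.101. On the deposited scale, with all arrays, all 170 pairs of bright members correlated above 0.5 (median 0.773). Of the pairs of all tested probe sets above the same cut, 9.31% did.

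**Figure D4:**
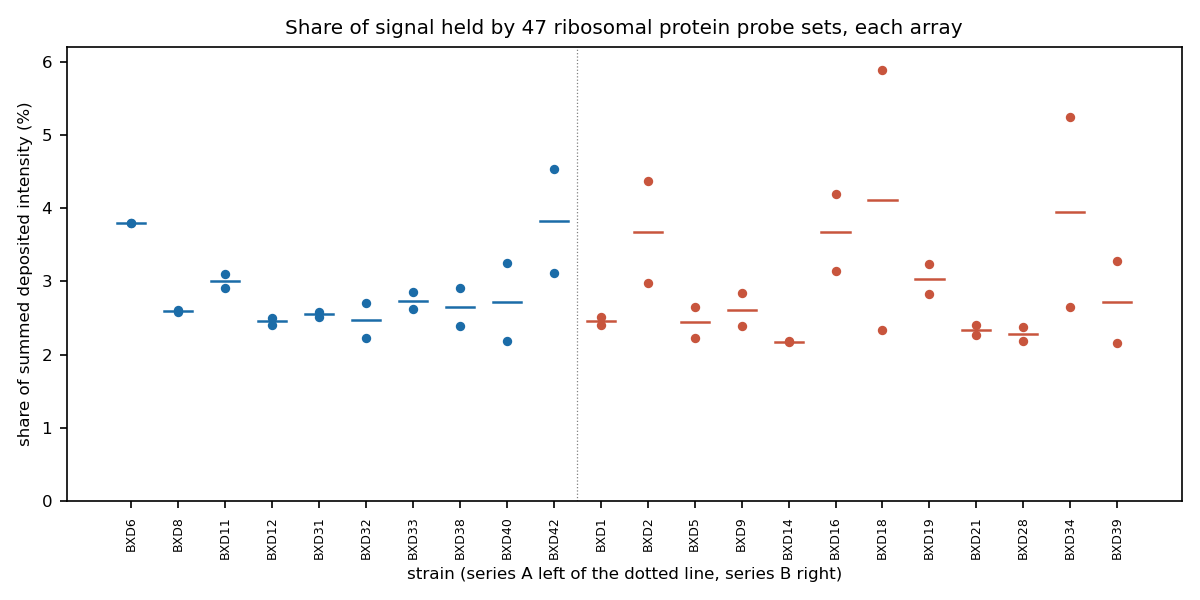
Share of the summed deposited intensity held by the 47 ribosomal protein probe sets on each of the 44 arrays, in percent, with 2 points and a mean bar for each strain and series A in blue and series B in red. BXD18 and BXD34 each have 1 array above 5% and 1 under 3%, and the arrays of BXD6 agree at 3.8%.

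The arrays of BXD18 show which members differed. On the deposited scale all 19 bright members were higher on replicate 1, with a median of 3.06-fold, while 7 of the 17 dimmer tested members were higher. The probe set 97696_r_at is named for Rps24 but was designed from the same sequence as one of Rpl7. It measured 26103 on replicate 1 and 8093 on replicate 2, against a median of 10044 over all arrays. The dimmer Rps24 probe set, 93121_at, went the other way, at 69.7 and 136.2. Rpl41, the smallest large-subunit protein, measured 18310 and 5223, and Rps10 measured 10655 and 2848. Rplp0, a protein of the ribosomal stalk to which translation factors bind, measured 14159 and 5193. Of the other 436 tested probe sets as bright, 234 were higher on replicate 1, with a median of 1.04-fold. The probe sets with several symbols, of which 1 is ribosomal, moved with the members, with 32 of 35 higher and a median of 2.29-fold. In BXD34 all 19 bright members were higher on replicate 1 as well, with a median of 2.33-fold, and 211 of the other 436 were. The Gapdh ratio was 4.21 and 2.97 on the arrays of BXD18, and 4.14 and 3.34 on those of BXD34, higher on the array with the larger ribosomal share in both strains. In BXD16 it was 2.84 on the array with the larger share and 3.83 on the other, and over all strains it was higher on the array with the larger share in 12 of 22. Its part in the share was not tested. After quantile normalization the bright members of BXD18 still differed by a median of 1.52-fold, with all 19 higher on replicate 1.

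**Figure D5:**
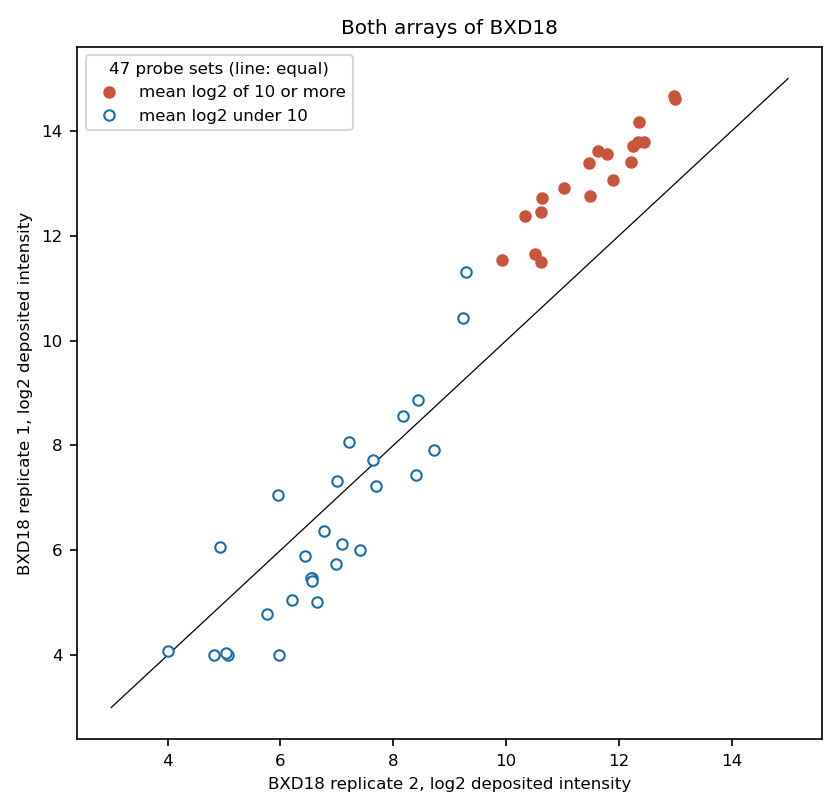
Deposited intensity (log2) of the 47 ribosomal protein probe sets on both arrays of BXD18, replicate 2 on the horizontal axis and replicate 1 on the vertical axis, with the line of equality. All 19 members with a mean of 10 or more lie above the line, and the dimmer members lie on both sides of it.

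Of the 16 tested genes outside the members whose messenger RNAs are known to carry a 5′ terminal oligopyrimidine tract, 10 were higher on replicate 1 of BXD18 on the deposited scale, while 45.8% of all tested probe sets were. Eef1a1, the elongation factor that brings aminoacyl-tRNA to the ribosome, measured 16511 and 7180. Tpt1, the translationally controlled tumour protein, measured 16781 and 6369. Fau, whose product includes a small-subunit protein, measured 46.4 and 81.6 at a low level. After quantile normalization 0 of these 16 passed the strain effect by limma, against 2.8% of all, and 1 (6.25%) had an unadjusted p under 0.05, against 11.9%. Higher in series B were 4 (25%), against 10.8% of all.

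Agreement between probe sets of a gene was uneven. The strain means of the probe sets of Rpl10a correlated at 0.752 (n = 22). Those of Rps29 correlated at 0.183, of Rpl19 at 0.0965, of Rps4l at -0.19, of Rps24 at -0.293 and the tested ones of Rps28 (100758_at and 98085_f_at) at -0.386. On the values as deposited the sign turned for Rps24 (0.16) and for Rps28 (0.544). The probe sets 97696_r_at of Rps24 and 97695_s_at of Rpl7 were designed from the same accession, and correlated at 0.48, or 0.939 on the deposited scale. On both scales 97696_r_at was thus closer to the Rpl7 probe set than to the other Rps24 one. Which gene it reports is therefore uncertain. In 15 of the 47 members the name carries a suffix that marks probes shared between transcripts or chosen under relaxed rules. Ribosomal protein genes have many near-identical pseudogenes, so a probe set may also report copies other than the gene it is named for.

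The 11 dim members were both probe sets of Rpl38, and Rpl39, Rps14, Rps15, Rps27l, Rpl7 (97697_at), Rps28 (98086_r_at) and 3 of Rps4x. Rps4x 162229_at was at the floor on 28 of 44 arrays, with a mean of 4.09. Rps4x was bright by another probe set, and a dim probe set does not show a low messenger RNA level. When no filter was set, Rpl38 was called along with Rpsa. By its brighter probe set, 99626_i_at, Rpl38 ran from the floor of 4 through a median of 6.05 to 6.89 and had an intraclass correlation of 0.636, with an adjusted p of 0.0208 by limma without the filter. Its series A extremes were the arrays labelled BXD42, at 4.24 and the floor, and those labelled BXD40, at 6.67 and 6.86. Without the arrays labelled BXD40 and BXD42 the intraclass correlation of Rpl38 was 0.442 and the adjusted p 0.242, so the call was lost. Of the retained paralogs, Rpl39l, a paralog of Rpl39 known from the testis, had a mean of 7.31 and an adjusted p of 0.924 for the strain effect by limma.

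In the other lists of protein synthesis the strain effect is read beside the 2.8% of all tested probe sets that passed it and the 11.9% with an unadjusted p under 0.05. Of 49 tested mitochondrial ribosomal proteins 1 passed (2.04%), Mrpl35 (adjusted p 0.0247 by limma). Its level ran from 5.01 to 9.14 over the arrays, with an SD between strain means of 0.74. The list of initiation factors took every symbol of Eif and a digit. It therefore also holds the kinases Eif2ak2, Eif2ak3 and Eif2ak4 and the binding proteins Eif4ebp1 and Eif4ebp2. Of its 35 genes 0 passed, with 1 at an unadjusted p under 0.05, and of 4 elongation factors 0, again with 1. Of 21 genes of ribosome assembly 1 passed (4.76%), Nop10 (adjusted p 0.0192), a protein of the particles that modify ribosomal RNA. Of 14 RNA polymerase I genes and 10 S6 kinases and regulators 0 passed, and 0 had an unadjusted p under 0.05. Between array series, 3 mitochondrial ribosomal proteins were higher in series B (6.12%) and 14 were lower (28.6%). Of the initiation factor list 11 were higher (31.4%), among them Eif2ak3 and Eif4ebp2, and 2 were lower (5.71%). Of all tested probe sets 10.8% were higher and 11.1% lower. Eif1ax, a scanning factor, was higher by 0.79 (adjusted p 5.46e-05 by limma).

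Outside the members, the genes whose centred strain means were most like the members' median were Eif3k (r = 0.873, n = 22 strains), Maf1 (0.855), Hk1 (0.834), Eif2b2 (0.815), Tpi1 (0.81), Pspn (0.807), Eef1b2 (0.799), Pip4k2c (0.792), Rab10os (0.792) and Naca (0.79). Eif3k and Eif2b2 are subunits of initiation factors, Eef1b2 is an elongation factor subunit, and Naca is part of the complex that meets the nascent chain at the ribosome. Hk1 and Tpi1 are enzymes of glycolysis. None of the 10 passed the strain effect, with adjusted p of at least 0.325 by limma, and all strain means come from the same arrays. They were picked for the highest r among all named tested genes outside the members, so a high r follows from the choice. The share of translation genes among all those ranked was not determined.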

How the data were processed

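The authors' deposited table holds intensities on a linear scale for 12488 probe sets on 44 arrays, and the 2% trimmed mean lay between 200.071 and 200.092 on every array. The software behind it is not given in the sources used here. Intensities under 16 were set to 16, log2 was taken, arrays were quantile normalized, and the 66 control probe sets and those with a mean under the 40th percentile were left out. No array repeated another. The number of arrays limits the precision.

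Genes were named through the platform annotation, and all 47 members matched RefSeq by Entrez identifier. Strain effect, single strains against the rest of their series and array series (22 strain means) were tested with limma 3.58.1 in R 4.3.3, with 22 residual and 4.373 prior degrees of freedom for the strain fit, and Benjamini-Hochberg adjustment over all tested probe sets. The code was tested on simulated data. Alternatives changed normalization, filter, floor, variance model, series model, Gapdh covariate, arrays and strains. Members, lists and the rule for named genes (called members, smallest p, extreme SDs, disease genes, dim members, genes with several probe sets, nearest non-members) were chosen with earlier results of these data known.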

Additional observations from a re-analysis of the deposited data

How the results depend on the processing

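The count of members past the strain effect, 0 of 36, became 2 without the filter on dim probe sets (Rpl38 and Rpsa), 2 with the array series not modelled (Rpl22 and Rpsa), 1 with limma's trended and robust variance, 1 with the ordinary F test and 1 without BXD40 and BXD42 (Rpsa each time). It was 1 without strain BXD38, 1 without BXD18 and 1 without BXD9 (Rpsa), and 1 (Rpl37a) without the 5 arrays over 4% of signal, an alternative chosen after seeing the data, like those without BXD2, BXD6 and BXD34 and, for Rpl38 and the share of signal, without BXD40 and BXD42. With single arrays left out it ranged from 0 to 2. Calls in single strains, 1 at first, became 4 without the filter, 2 with ordinary tests, 2 without BXD40 and BXD42, 0 in series A alone, 2 without strain BXD42, 0 without strain BXD2, 2 without strain BXD34 and 2 without the 5 arrays, and ranged from 1 to 4 with single arrays left out. The series difference stayed between 6 and 11 members, with 6 on the values as deposited and 11 without the filter. None of the 8 called series differences changed sign under the alternatives run for them. The correlations of the probe sets of Rps24 and of Rps28 did on the values as deposited. The strain medians of the members moved by more than the SD between arrays in 8 of 22 strains on the values as deposited and in 7 with a common median. The SD between strain means rose to over 1.5 times its value in 9 of 36 members under each. In 3 of them, Rplp0, Rps24 and Rps28, the change exceeded the member's own SD between arrays of a strain. The causes were not tested. No paired analysis was possible because the labels give no replicate numbers and those used were set in accession order. With 2 arrays a strain, each strain mean rests on few values.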
